A study of Mus musculus with 8 samples.

Results

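Genomic DNA of 6 hepatocellular carcinomas (HCC) from FEAT transgenic mice was compared with DNA of the normal liver of 1 FEAT transgenic mouse, so that copy number differences already carried by the transgenic line would cancel. The comparison uses 7 of the 8 arrays of the series, chosen by their labels. Every animal was a male C57BL/6 mouse. Tumours 1 to 6 came from mice of 16, 21, 20, 18.5, 22 and 12 months, and the normal liver belonged to a FEAT mouse aged 13 months. Tumour and age therefore cannot be told apart for tumours 1 to 5, which came from mice older than the normal one. Per the labels, the mouse of tumour 4 also had lung metastasis. The labels give neither the promoter of the transgene nor the number of founder lines. Each sample was hybridised in Cy3 against Cy5-labelled reference DNA from the liver of a wild-type C57BL/6 male of 6 months. The remaining array, a wild-type liver of 6 months against the same kind of reference, entered no fit and is given beside the results as the other non-tumour DNA.

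Array comparative genomic hybridisation reads relative copy number: test and reference DNA compete for each oligonucleotide probe, and their ratio follows the number of copies per cell. Tumours commonly gain or lose whole chromosomes through errors in mitosis, and smaller stretches through breakage and repair. Mettl13, which is also called FEAT, encodes a methyltransferase that modifies the translation elongation factor eEF1A. In liver cancer, copy number gains often reach growth genes and losses often reach tumour suppressors.

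Ratios of test to reference are given on the log2 scale, with the median of each array's autosomal probes set to 0. A difference is a tumour's ratio minus that of the normal FEAT liver at the same probe, so 0 means equal copy number. A gain of 1 copy in every cell would ideally give 0.585 and a loss of 1 of 2 copies -1. A smaller change in all cells and the same change in fewer cells cannot be told apart in bulk DNA. After averaging of repeated spots, 220065 autosomal probes remained, with a median spacing of 7.85 kb, and 68.1% of them carried a gene name. Probe-to-probe noise (SD) against the reference was 0.260, 0.233, 0.321, 0.487, 0.221 and 0.360 in tumours 1 to 6 and 0.323 in the normal FEAT liver. Tumour 4 was the noisiest array. Across probes, the correlation with the normal FEAT liver ran from 0.409 in tumour 5 to 0.760 in tumour 6, against 0.264 for the wild-type liver; all arrays share the reference and the probes. After subtraction the noise fell to 0.278, 0.316 and 0.197 in tumours 3, 4 and 6, and stood at 0.269, 0.276 and 0.274 in tumours 1, 2 and 5.

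The probes below are printed because the results turn on them, and their positions follow the annotation of the array (genome build: not given in the sources used here). The annotation names the gene of a probe but not the exon or intron. The 2 probes of the transgene's gene, listed on the array as 5630401D24Rik, lie at chr1:162500192-162500247 and chr1:162506803-162506861. Near Grin1, a pair of probes at chr2:25298452-25298503 and chr2:25298474-25298527 share 30 bases, written in capitals, so that they are not independent readings of that locus. The probes in Pfkm at chr15:98119373-98119432 and in Hecw2 at chr1:54282396-54282455 had the lowest values of the normal FEAT liver among the probes that differed. The first Smyd3 probe, at chr1:179292189-179292248, had the lowest ratio against the reference in tumour 3 among the 10 probes of the called stretch. The other, at chr1:179252579-179252638, had the highest. Low and not low in their labels refer to that ratio. At the second probe, too, tumour 3 was below the normal FEAT liver, with 0.18 against 0.55.
Mettl13 probe 1: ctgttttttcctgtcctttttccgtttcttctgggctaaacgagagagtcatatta
Mettl13 probe 2: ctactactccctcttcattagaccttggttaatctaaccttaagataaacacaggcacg
Grin1 locus, first of the pair: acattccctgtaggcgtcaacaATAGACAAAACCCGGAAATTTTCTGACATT
Grin1 locus, second of the pair: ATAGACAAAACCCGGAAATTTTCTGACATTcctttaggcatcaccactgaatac
Pfkm probe: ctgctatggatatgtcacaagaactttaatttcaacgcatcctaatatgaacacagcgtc
Hecw2 probe: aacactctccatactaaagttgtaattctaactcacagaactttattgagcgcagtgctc
Smyd3 probe, low in tumour 3: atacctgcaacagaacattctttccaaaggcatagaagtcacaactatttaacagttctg
Smyd3 probe, not low in tumour 3: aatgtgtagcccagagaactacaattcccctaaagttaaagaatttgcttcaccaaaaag

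Whole-chromosome gains and losses were as large against the normal FEAT liver as against the reference, and they lay in tumours 1 and 5, with smaller shifts in tumour 4. Tumour 5 had the most: the mean difference was 0.31 on chromosome 1, 0.26 on chromosome 15, 0.19 on chromosome 17, 0.18 on chromosome 3 and 0.17 on chromosome 19. In the same tumour, chromosomes 9 and 7 stood at -0.29 and -0.25. Tumour 1 had a mean difference of 0.32 on chromosome 15, with -0.24 on chromosome 14, -0.22 on chromosome 12 and -0.19 on chromosome 4. Tumour 4 had 0.19 on chromosome 16, 0.18 on chromosome 18, 0.17 on chromosome 1 and 0.13 on chromosome 17. The probe medians of tumour 4 were lower, at 0.12, 0.11, 0.10 and 0.06 on those 4 chromosomes. The mean of all its differences was 0.04 and their median -0.03, so that their distribution was skewed.

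Counting autosomes with a mean difference of at least 0.1 in size, tumour 5 had 5 raised and 7 lowered of 19, tumour 1 had 1 raised and 3 lowered, and tumour 4 had 4 raised and 0 lowered. Counted by probe medians, tumour 4 had 3 raised and 5 lowered: chromosomes 9, 12, 3, 13 and 4 stood at -0.16, -0.13, -0.12, -0.10 and -0.10. By medians tumour 5 had 5 raised and 5 lowered, and the count of tumour 1 was the same. Tumours 2, 3 and 6 had none in either direction by either measure. Tumour 2 came closest, with 0.08 on chromosome 10 and -0.07 on chromosome 16, and these were 0.06 and -0.09 with the wild-type liver as control. Tumour 3 ranged from 0.03 to 0.06 over the autosomes and tumour 6 from -0.03 to 0.02. The wild-type liver minus the normal FEAT liver ranged from 0.01 to 0.03. The autosomal means of the normal FEAT liver itself lay between -0.01 and 0.02, so its subtraction moved no chromosome by more than that. The spread of the autosome means within a sample (SD over 19 autosomes) was 0.121, 0.0308, 0.00768, 0.0808, 0.165 and 0.0124 in tumours 1 to 6, against 0.00447 for the wild-type liver. The tumours thus fell on both sides of 0.05, with tumours 1, 4 and 5 above it.

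**Figure D1:**
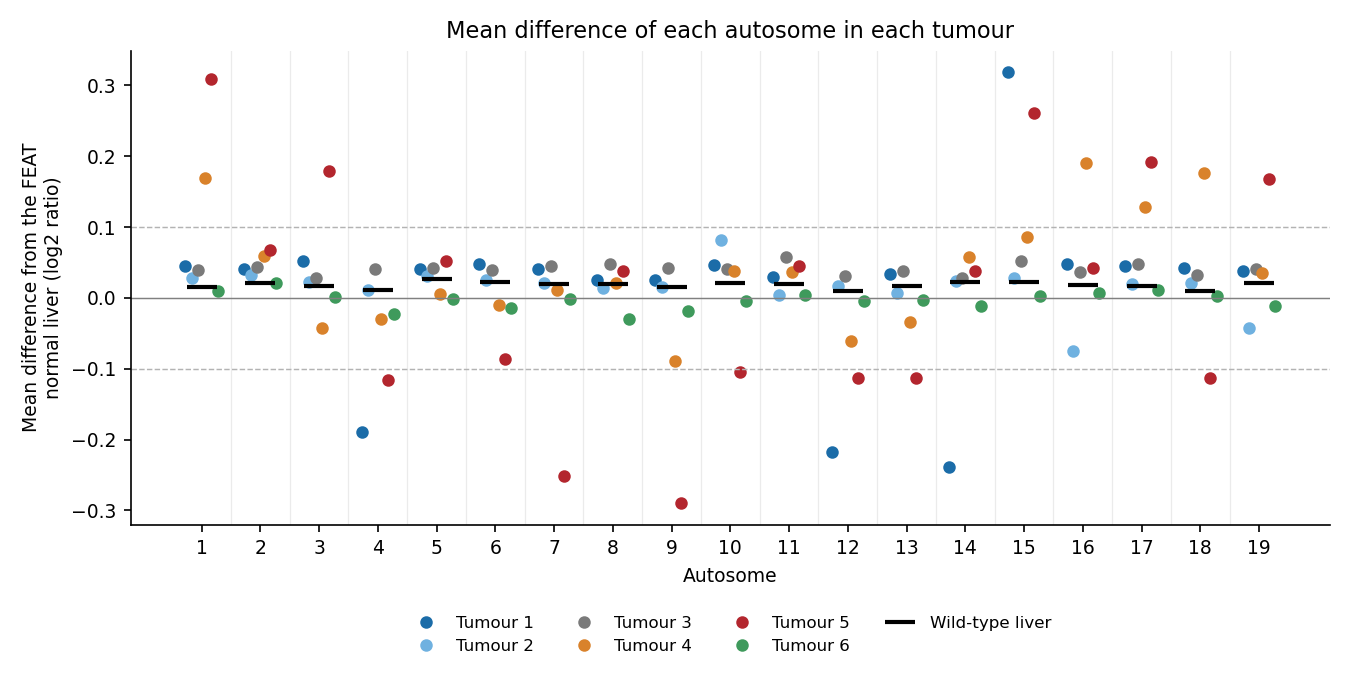
Mean difference (log2, tumour minus normal FEAT liver) of each autosome, for tumours 1 to 6 and the wild-type liver. Chromosomes 1 and 15 of tumour 5 and chromosome 15 of tumour 1 stand above 0.25, chromosomes 7 and 9 of tumour 5 lie at -0.25 and -0.29, and tumours 3 and 6 stay close to 0.

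On the chromosomes with the highest means, 15 and 1, the tumours varied by as much as the mean itself. On chromosome 15 the differences of tumours 1 to 6 were 0.32, 0.03, 0.05, 0.09, 0.26 and 0.00, with a mean of 0.12 ± 0.13 (SD, n = 6). On chromosome 1 they were 0.04, 0.03, 0.04, 0.17, 0.31 and 0.01, with a mean of 0.10 ± 0.12 (SD, n = 6). By these means all 6 tumours were above 0 on both chromosomes, but only 2 reached 0.1 on each. The probe medians of tumour 6 were below 0, at -0.02 on chromosome 15 and -0.01 on chromosome 1. The mean difference of the wild-type liver was also above 0 there, at 0.02 and 0.01. On chromosomes 2, 11 and 17, too, the means of all 6 tumours were above 0. In limma with Benjamini-Hochberg adjustment, which must assume here that the lone normal array varies like the tumours, 0 of the 19 autosome means (0% called) passed the threshold, and 0 had an unadjusted p under 0.05. The smallest adjusted p of that limma fit was 0.925. An exact permutation test of 6 tumours against 1 array cannot give a p below 0.143.

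Divided into segments of constant level, with segments at or beyond 0.2 called as gained or lost, the tumours held very unequal shares of altered autosomal probes. Gained segments held 4.18% of the probes of tumour 1, and lost segments 9.03%. The corresponding shares were 0.0129% and 0% for tumour 2, and 0.0279% and 0.0385% for tumour 3. The called segments of tumours 2 and 3 were thus short, all of them under 3 Mb. Tumour 4 had gains over 2.59% and losses over 0.227%, whereas tumour 5 had 11.5% and again 11.5%. Tumour 6 had 0.0151% and 0.011%. The wild-type liver, treated in the same way, gave 0.0217% and 0.0023%, within the range of tumours 2, 3 and 6. The altered share averaged 6.52% ± 9.54 (SD, n = 6), with a median of 1.44% and a range of 0.0129% to 23.0%. Without the subtraction, the altered shares of tumours 1 to 6 were 14.3%, 0.0359%, 0.0233%, 5.58%, 25.1% and 0.0298%. Subtraction thus lowered the share in tumours 1, 2, 4, 5 and 6 and raised it in tumour 3. The share of tumour 4 depended on how a segment's level was taken: it was 2.82% with the mean of the segment's probes and 0.302% with their median. With another centring, on the most frequent value, it was 22.2%, and with a calling threshold of 0.1 it was 25.3%.

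**Figure D2:**
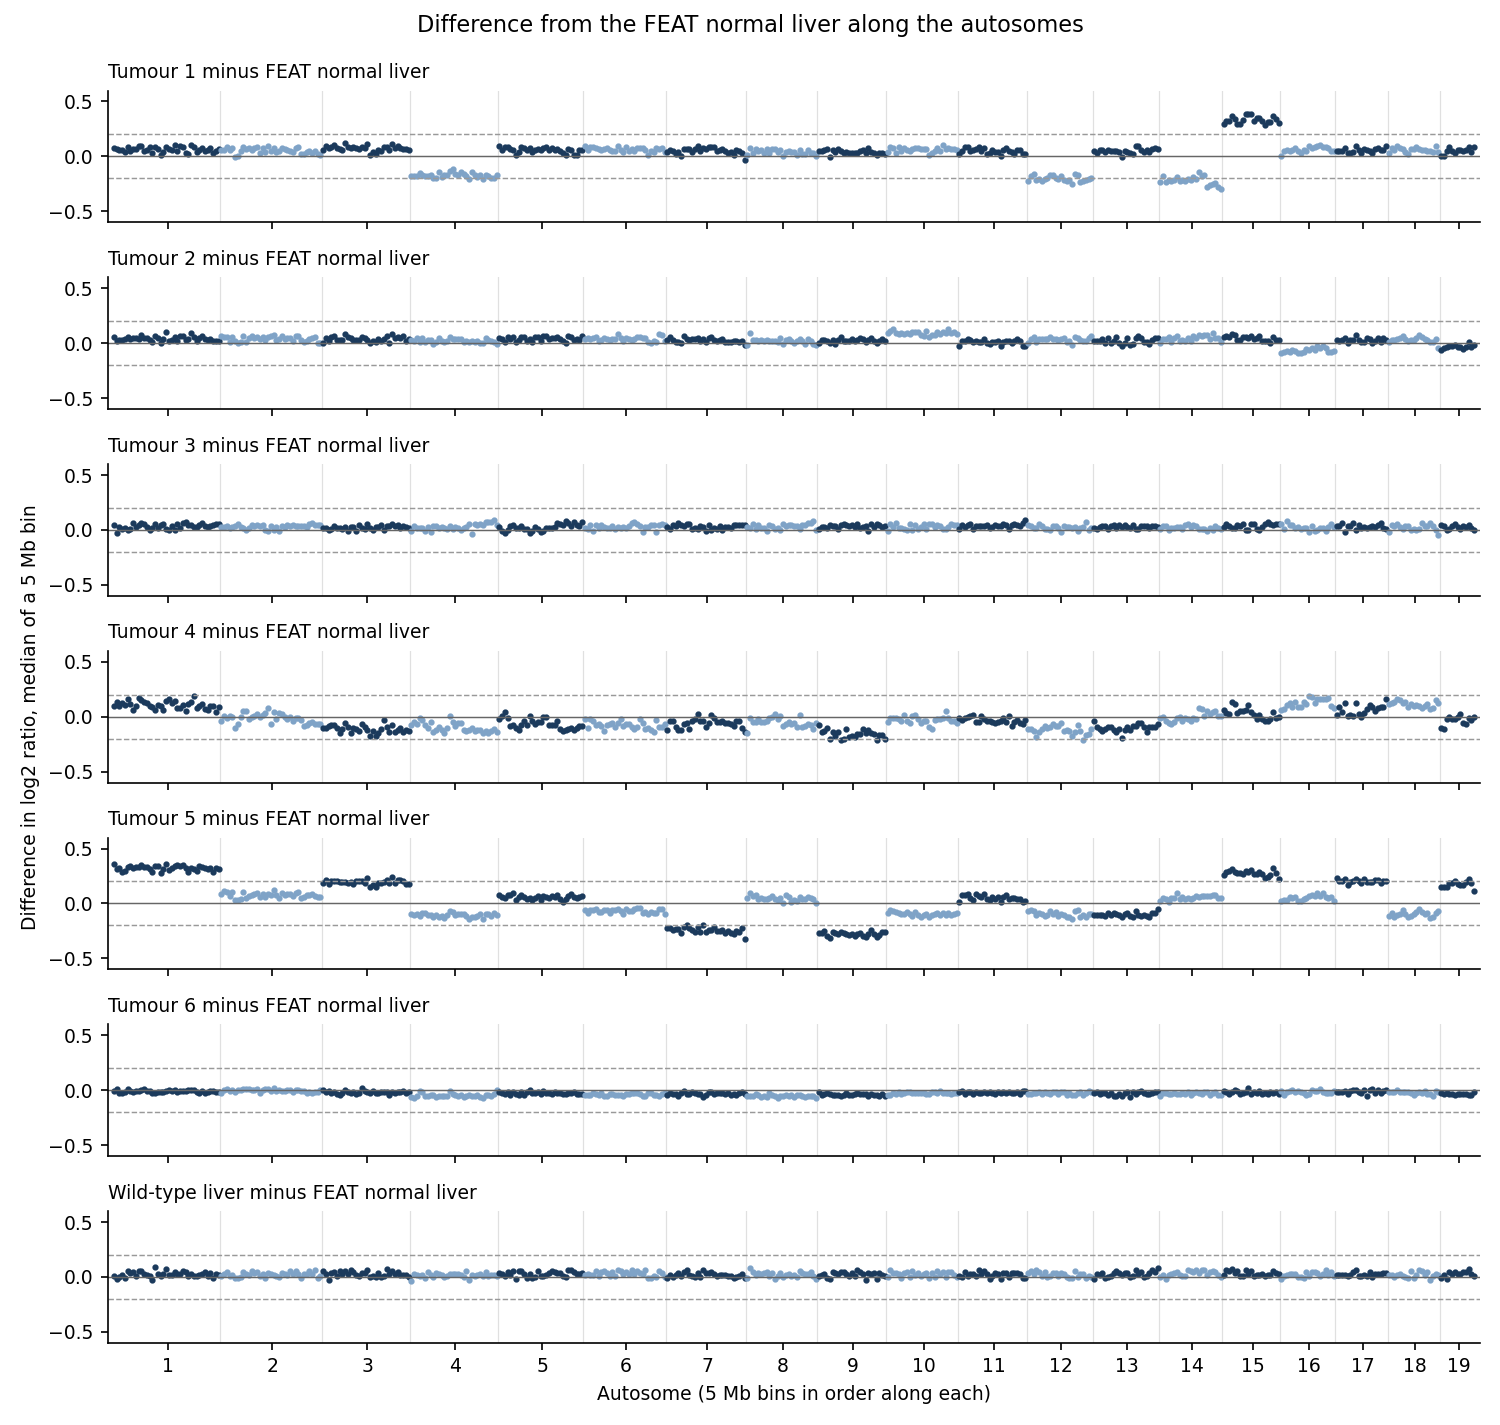
Median difference (log2, tumour minus normal FEAT liver) in 5 Mb bins along the autosomes, laid end to end, for each tumour and for the wild-type liver. Tumours 1 and 5 show whole chromosomes above or below 0, tumour 4 shows stretches on both sides of 0, lowest on chromosome 9 (chromosome median -0.16), and tumours 2, 3 and 6 and the wild-type liver run close to 0.

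The large called segments of tumour 5, those of 3 Mb and more, were whole chromosomes: chromosome 1 at a level of 0.31 and chromosome 15 at 0.26 were gained, chromosome 7 at -0.26 and chromosome 9 at -0.29 were lost. Each was a single segment, over 191.9, 100.2, 138.7 and 120.8 Mb of chromosomes 1, 15, 7 and 9. Chromosome 17 and 27.31 Mb of chromosome 3 were not called in tumour 5, at levels of 0.19 and 0.18. Their probe medians, 0.202 and 0.2005, were above the threshold of 0.2. Tumour 1 lost chromosome 12 as a whole, over 114.8 Mb at -0.22. Its chromosome 14 was divided, with 70.32 Mb at -0.23, then 15.48 Mb at -0.18 that did not reach the threshold, then 29.71 Mb at -0.28. Its chromosome 15 was gained throughout in 3 pieces at 0.30, 0.37 and 0.31, the middle one of 15.76 Mb. Chromosome 4 of tumour 1 lay at -0.19 along its whole length, just inside the threshold, and was not called. In tumour 4 the large calls were parts of chromosomes, at levels of 0.22 to 0.26: 17.64 Mb and 11.02 Mb of chromosome 1, 46.57 Mb of chromosome 16 and 5.143 Mb of chromosome 17. The probe medians of these tumour 4 segments were 0.15 to 0.18, under the threshold of 0.2. None of the large gained segments of any tumour reached the 0.585 of a single-copy gain in all cells.

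Recurrence was counted in 2374 bins of 1 Mb. At least 1 tumour had a gain in 346 bins and a loss in 470. Gains in at least 2 tumours covered 129 bins, 100 of them on chromosome 15 in tumours 1 and 5 and 29 on chromosome 1 in tumours 4 and 5. The 29 rest on tumour 4 segments with mean levels of 0.22 and 0.26. Their medians were 0.15 and 0.18, under the threshold of 0.2. Losses in at least 2 tumours covered 2 bins on chromosome 9, in tumours 4 and 5. No bin was called in 3 or more tumours. The 6 differences share the normal array, whose own means on chromosomes 1, 9 and 15 were 0.01, 0.00 and -0.01. Of the 129 recurrent gains, 29 stayed without tumour 1 and 0 without tumour 5. The 2 recurrent losses went to 0 without tumour 4 or without tumour 5. In limma, 0 of 2374 bins (0% called) passed the threshold in either direction, with 0 at an unadjusted p under 0.05.

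On chromosome 14, 1 locus was low in the normal FEAT liver and in all tumours alike. It lies at chr14:64128347-64327455, over 31 probes. It spans Loxl2, an enzyme that crosslinks collagen, Entpd4, a nucleotidase of the Golgi and lysosome, and part of Slc25a37, the mitochondrial iron importer. The median ratios against the reference were -1.24, -0.98, -0.96, -0.94, -0.93 and -0.99 in tumours 1 to 6, -0.91 in the normal FEAT liver, against -0.03 in the wild-type liver. All 7 FEAT arrays were thus near the -1 of a loss of 1 of 2 copies, and the wild-type array was not. After subtraction the differences were -0.30, -0.07, 0.03, -0.06, 0.00 and -0.07. Tumour 1 remained low, and its whole chromosome 14 was low: relative to the rest of chromosome 14, the locus stood at -0.99 in tumour 1, -0.95 to -0.99 in the other tumours and -0.91 in the normal FEAT liver.

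Averaged over their own probes, the genes of the chromosome 14 locus also had mean differences near 0. Loxl2 had a mean difference of -0.04 ± 0.14 (SD, n = 6), Entpd4 of -0.08 ± 0.24 and Slc25a37 of 0.02 ± 0.15. Abcc8, the sulfonylurea receptor on chromosome 7, had -0.03 ± 0.10. Over its 10 probes the normal FEAT liver stood at only -0.14 against the reference, so there was little to cancel. A shorter called stretch of Abcc8 is given below. These genes and Grm4 were named in an earlier account of these arrays, so their values are no independent evidence. Grm4, a glutamate receptor on chromosome 17, did not cancel in most tumours. Its differences in tumours 1 to 6 were 0.29, 0.20, 0.24, 0.28, 0.35 and -0.01, with a mean of 0.22 ± 0.12. The normal liver stood at -0.06 and tumour 6 at -0.07, below the range of 0.14 to 0.29 of the other 5 tumours. In the stretch at its border, chr17:25512393-25608465, with 8 probes, all FEAT arrays were raised against the reference: 0.97, 0.52, 0.78, 0.95, 0.59 and 0.51 in tumours 1 to 6 and 0.40 in the normal FEAT liver, against -0.11 in the wild-type liver. This stretch was looked up after its values were seen. Neither Grm4 nor the other 4 passed limma across all genes.

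The normal FEAT liver had 7 called segments of its own against the reference, all of them losses. Besides the chromosome 14 locus, they lay at Anapc2 and Grin1 on chromosome 2, BC040066 on chromosome 4, L35549 on chromosome 6, Abcc8 on chromosome 7, P140 on chromosome 11 and Prm1 on chromosome 16. A call of this kind that the tumours lack turns into a gain in the difference. At BC040066, chr4:121188785-121986047, the medians against the reference were -0.70, -0.19, -0.18, -0.34, -0.26 and -0.21 in tumours 1 to 6 and -0.62 in the normal FEAT liver. Only tumour 1 was as low as the normal liver there, and no tumour was called after subtraction. At Abcc8, chr7:42268127-42287814, the medians were -0.26, -0.38, -0.38, -0.88, -0.54 and -0.83 in the tumours, -0.83 in the normal FEAT liver, against -0.13 in the wild-type liver. Tumours 4 and 6 lay within 0.2 of the normal liver and the other 4 lay above it.

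Focal calls, meaning called segments under 3 Mb, were rearranged by the subtraction. Against the reference the 6 tumours had 32, of which 12 stayed and 20 were lost. After subtraction there were 62, of which 10 had been called in the same direction before and 52 were new. By tumour there were 8, 5, 15, 22, 5 and 7 after subtraction, with the highest number in tumour 4, the noisiest array. The wild-type liver minus the normal FEAT liver gave 5. In 29 of the 62 the normal array lay farther from 0 than the tumour array, and in 33 the tumour array did. Of the 22 calls of tumour 4, the tumour array was the farther one in 17. Of the 5 calls of tumour 2 it was so in none.

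The 62 calls fell into 37 loci, 28 only gained, 8 only lost and 1 in both directions. They had a median width of 36 kb, and 15 of the 37 rested on 5 probes, the fewest allowed. In 29 loci a single tumour was called. In 8 loci at least 2 tumours were called, in 7 at least 3 and in 1 all 6. Those called in several tumours share the value of the 1 normal array.

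The highest focal differences were at loci where the normal liver was low. At chr2:25292894-25301903, between Anapc2, a subunit of the anaphase-promoting complex, and Grin1, a subunit of the NMDA receptor, the medians against the reference were -0.25, -0.09, 0.36, -0.26, 0.41 and -0.44 in tumours 1 to 6. The normal FEAT liver stood at -1.58 and the wild-type liver at 0.28. All 6 tumours were called gained, up to a level of 1.40 in tumour 5, although none was called gained against the reference. Within the locus the low value of the normal liver was carried by 3 of 5 probes. The overlapping pair printed above read -1.74 and -1.58, and the Grin1 probe -1.93. The other probes, in Anapc2 and AK019803, read -0.19 and 0.05.

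Similar readings were made at 3 more loci. At P140, now named Srcin1, which encodes a scaffold that restrains the kinase Src, the tumours stood at -0.27, -0.07, 0.03, -0.37, -0.31 and -1.01. At that locus, chr11:97627549-97656675, the normal FEAT liver read -1.62 and the wild-type liver -0.04. Tumour 6 lay between the normal liver and the other tumours, and it was the only tumour not called. At L35549, chr6:47983819-47987923, the tumours ranged from -0.04 to 0.17, with -1.67 in the normal FEAT liver, against -0.08 in the wild-type liver. At Prm1, a protamine gene active in sperm cells, chr16:10473881-10476352, the tumours ranged from -0.64 to 0.00, with -1.67 in the normal FEAT liver, against 0.14 in the wild-type liver. At these loci the tumours were nearer to the wild-type liver than to the normal FEAT liver, apart from tumour 6 at P140. Ppp2ca, the catalytic subunit of protein phosphatase 2A, was called gained in tumour 4 at a level of 1.19. Against the reference, tumour 4 stood at 0.13, the other tumours at -0.27 to -0.09, the normal FEAT liver at -0.57 and the wild-type liver at -0.61.

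The lowest focal differences had another make-up, with the normal liver near 0 at 3 of the 5 loci. At Smyd3, a histone and protein lysine methyltransferase gene, tumour 3 was lost at chr1:179230850-179313946 at a level of -0.65. Its median over 10 probes against the reference was -0.74, whereas the other 5 tumours lay at 0.01 to 0.21, the normal FEAT liver at -0.03 and the wild-type liver at 0.03. Tumour 3 did not overlap with any other array. The probes were not uniform. The low probe printed above read -1.25 in tumour 3 and -0.45 in the normal FEAT liver, and the other read 0.18 and 0.55.

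At A630047E20Rik, now named Tbck, which encodes a kinase-like protein, chr3:132493230-132529248, the medians against the reference were -0.72, 0.16, 0.23, -0.79, -0.60 and -0.68 in tumours 1 to 6. The normal FEAT liver stood at -0.10 and the wild-type liver at -0.09. Tumours 1, 5 and 6 were called lost, and tumour 4 was as low without a call, on the noisiest array. Tumours 2 and 3 stood above both normal livers. At chr13:63649759-64023184, with 7 probes and the array names AK019107, BC049692 and C330014B19Rik, the medians were -0.92, -0.28, -0.89, -1.11, 0.47 and 0.73. Both normal livers lay near 0, the FEAT one at 0.02 and the wild-type one at -0.10. Tumours 1, 3 and 4 were lost and tumours 5 and 6 gained, so this was the 1 locus called in both directions. C330014B19Rik is now named as a vomeronasal receptor pseudogene, a gene type with near-identical copies, and its probes may read more than 1 copy.

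In the last pair of losses the normal liver was high. At Kif9, a kinesin gene on chromosome 9, the medians were 0.01, 0.48, -0.04, 0.01, 0.26 and 0.63, 0.81 in the normal FEAT liver, against -0.21 in the wild-type liver. Tumours 1 and 3 were called lost although they lay near 0. At Wsb2 and Ksr2 on chromosome 5, tumour 1 was called lost at -0.37, with -0.13 in the tumour and 0.24 in the normal FEAT liver.

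**Figure D3:**
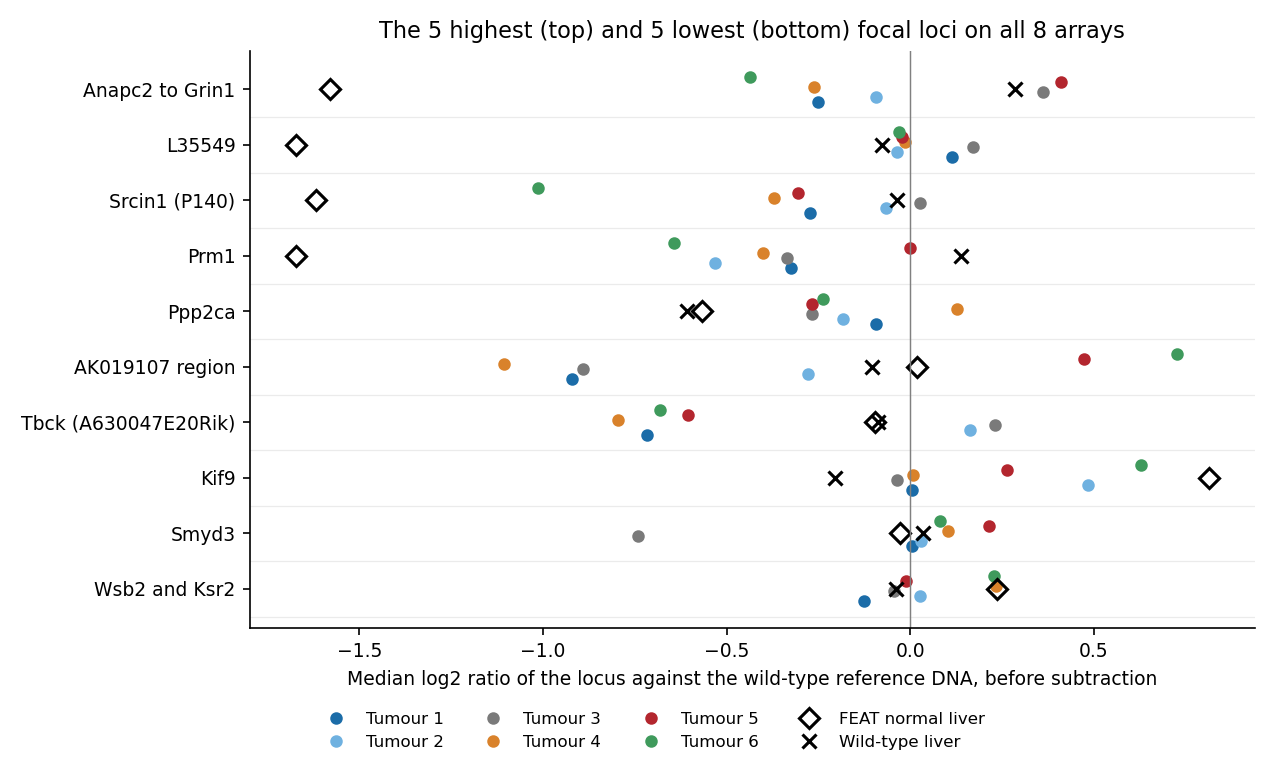
Median log2 ratio against the reference at the 10 focal loci with the highest and lowest differences, 1 point for each tumour, the normal FEAT liver and the wild-type liver. At the Grin1, L35549, P140 and Prm1 loci the normal FEAT liver lies at -1.58 to -1.67, below every tumour; at the Smyd3 locus tumour 3 lies alone at -0.74.

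Single probes passed the test in small numbers. In limma over 214843 autosomal probes with a value on all 7 arrays, 234 (0.109%) were higher in the tumours and 7 (0.00326%) lower at an adjusted p under 0.05. At the 234 probes the normal FEAT liver had a median ratio of -1.90 (range -5.29 to -1.02). The tumour medians over the same probes were -0.03, 0.04, 0.01, -0.25, 0.08 and -0.23 in tumours 1 to 6, and that of the wild-type liver was -0.04. At the 7 lower probes the normal FEAT liver stood at 1.19 to 2.23. A probe passes a test of 6 arrays against 1 only where the lone array lies far from the others, so that the distance of the normal liver at these probes is fixed by their choice.

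The low probes stood alone. They formed 223 loci when probes within 100 kb were joined, and 211 of the 234 were the only one of their locus. In the 10 probes flanking each, the normal FEAT liver had a median of -0.01. Their median GC content was 36.67%, the same as over all autosomal probes. The normal FEAT liver had 161 probes below -2, 155 of them with both neighbours above -1. Tumours 1 to 6 had 183, 2, 18, 21, 16 and 52 such probes and the wild-type liver 3, so that tumour 1 had more than the normal liver. With the wild-type liver added as a second control, 0 probes passed limma (3592 higher and 1218 lower at an unadjusted p under 0.05). Without 1 tumour, the number called ran from 130 (without tumour 2) to 375 (without tumour 6). It was 154, 148, 349 and 150 without tumours 1, 3, 4 and 5.

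The largest difference was at the Pfkm probe printed above, in the gene of the muscle-type phosphofructokinase of glycolysis. It read 0.35, 0.07, 0.27, 0.79, 0.41 and -0.08 in tumours 1 to 6, 0.17 in the wild-type liver and -5.29 in the normal FEAT liver. The difference was 5.60 (SE 0.27), with an adjusted p of 3.079e-05 in limma. At the Hecw2 probe, in a ubiquitin ligase gene, the tumours read 0.49, -0.13, 0.44, 0.55, 0.38 and 0.18, the wild-type liver -0.15 and the normal FEAT liver -4.20. The probe in Adss, the gene of adenylosuccinate synthase, lies at chr1:177745764-177745823. There the tumours read 0.09 to 0.47, the wild-type liver 0.02 and the normal FEAT liver -3.27. At these 3 probes the lone normal FEAT array lay more than 3 log2 units below every tumour. That distance is fixed by their choice as the largest differences. The next 7 by size were in AK039128, Dock1, Zfp606, Tbc1d16 and BC021315 and at 2 probes with no gene name, with differences of 2.63 to 3.39. All 10 lost their call when the wild-type liver, which lay nearer the tumours at each of them, was added as a control. With controls so far apart, the loss of the calls follows and does not test the probes.

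**Figure D4:**
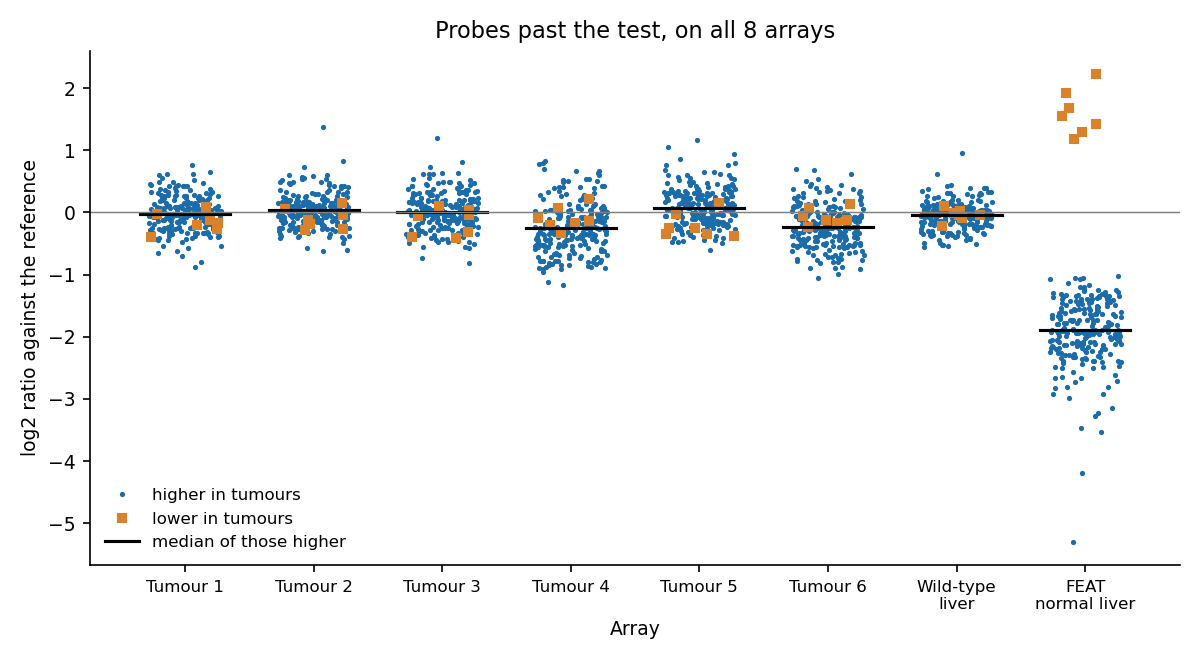
Log2 ratio against the reference at the 241 probes that differed in limma between the tumours and the normal FEAT liver, for each array. The normal FEAT liver is centred near -1.90 at the 234 probes higher in tumours, while the 6 tumours and the wild-type liver are centred near 0.

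Averaged over genes with at least 2 probes, 0 of 16522 genes (0% called in either direction) passed limma, with 306 higher and 88 lower at an unadjusted p under 0.05. Pfkm had an adjusted p of 0.0514 in limma, just outside the threshold. Over its 5 probes the difference was 1.28 (SE 0.16), with -1.14 in the normal FEAT liver. That value rests on the single probe described above: over the other 4 probes of the gene, the normal FEAT liver stood at -0.10 and the tumours averaged 0.10 ± 0.15 (SD, n = 6).

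The gene of the transgene itself read higher at its first probe in the normal FEAT liver than in most tumours. Probe 1 read 1.37, 1.56, 3.73, 0.26, 0.59 and 0.44 in tumours 1 to 6, 2.05 in the normal FEAT liver, against -0.15 in the wild-type liver. Tumours 1, 2, 4, 5 and 6 lay below the normal FEAT liver and tumour 3 above it. The mean difference was -0.72 ± 1.29 (SD, n = 6), and limma called no difference (adjusted p = 1). Probe 2 read 0.37, 0.43, 0.56, 1.07, 1.03 and 0.75, with 0.54 in the normal FEAT liver, against 0.15 in the wild-type liver. The tumours lay on both sides of the normal liver there, with a mean difference of 0.16 ± 0.30 (SD, n = 6). The probes gave different orders of the tumours, and no order of transgene copies among tumours was read from them. The flanking probes of chromosome 1 were raised in tumours 4 and 5, with medians of 0.31 and 0.34 around probe 1, where chromosome 1 as a whole was raised. The 0.26 of tumour 4 at probe 1 lies within the noise of that array, 0.487.

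Cancer and liver genes were followed in 5 lists, chosen with earlier results of these data known. Of all 16522 genes tested, 12.2% lay in a segment gained in at least 1 tumour and 21.3% in one lost in at least 1. The shares for at least 2 tumours were 4.5% and 0.315%. The median difference over all genes was 0.01, and no member of any list passed limma over all genes. Of 21 measured HCC oncogenes of 30 listed, 2 lay in gained and 6 in lost segments, with a median difference of 0.04. Of 24 measured tumour suppressors of 27 listed, 1 lay in a gained and 6 in lost segments, with a median of 0.07. Of 19 apoptosis genes of 24 listed, 4 were in gained and 1 in lost segments, with a median of -0.04. Of 19 genes of cell cycle and mitosis of 24 listed, 2 were in gained and 5 in lost segments, with a median of 0.00. Of 11 hepatocyte genes of 20 listed, 0 were in gained and 3 in lost segments, with a median of -0.04. The counts rest on tumours 5 and 1. Without tumour 5, the lost oncogenes went from 6 to 0, the lost cell cycle genes from 5 to 0, the lost tumour suppressors from 6 to 4, the lost hepatocyte genes from 3 to 1, the gained apoptosis genes from 4 to 1 and the gained oncogenes from 2 to 1. Without tumour 1, the lost tumour suppressors went from 6 to 3, the lost hepatocyte genes from 3 to 2 and the lost apoptosis genes from 1 to 0.

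Members gained in more than 1 tumour lay on chromosomes 15 and 1. On chromosome 15, tumours 1 and 5 gained Ptk2, the focal adhesion kinase, Arid2, a chromatin remodelling subunit and tumour suppressor, Espl1, the protease separase, and Rad21, a cohesin subunit. The mean differences of Ptk2 over its 35 probes were 0.36, 0.00, 0.14, 0.26, 0.25 and -0.02 in tumours 1 to 6. Tumour 4 was as high as tumour 5 at these probes, while its segment lay at only 0.06. Espl1 over 5 probes read 0.62, 0.37, 0.53, 0.26, 0.77 and 0.18, with -0.28 in the normal FEAT liver against the reference. Its values were above 0 in all 6 tumours, and its unadjusted p of 0.0389 did not stand after adjustment in limma (adjusted p = 1). Myc has 1 probe and was not tested, and it lies in segments at 0.31 in tumour 1 and 0.26 in tumour 5. On chromosome 1, tumours 4 and 5 gained Bcl2, which blocks apoptosis, with segment levels of 0.22 and 0.31. Its own probes read 0.11 in tumour 4, 0.38 in tumour 5 and 0.02 to 0.07 in the others. The call in tumour 4 rests on the segment mean: the median of that segment was 0.15, under the threshold of 0.2.

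The 1 member lost in more than 1 tumour was Keap1, the adaptor that marks Nrf2 for degradation, on chromosome 9. It lay in a focal segment of 1.648 Mb at -0.22 in tumour 4 and in the loss of chromosome 9 at -0.29 in tumour 5. Its 3 probes read 0.12, 0.22, 0.12, -0.29, -0.28 and -0.09 in tumours 1 to 6. Tumours 4 and 5 were thus the lowest, followed by tumour 6. Across probes, the differences of tumour 4 correlated with probe GC content at r = -0.20, against -0.08 to -0.03 in the other tumours. Whether this bears on the segment of tumour 4 was not tested.

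Members called in a single tumour followed the whole chromosomes of tumours 5 and 1. The loss of chromosome 9 in tumour 5 took in Ctnnb1 and Yap1, the effectors of Wnt and Hippo signalling, the inhibitors of apoptosis Birc2 and Birc3, the suppressors Rassf1 and Tgfbr2, the checkpoint genes Ttk, Atm and Chek1, and Apoa1, a lipoprotein of hepatocytes. At Atm over 12 probes, tumour 5 read -0.42 and the other tumours -0.02 to 0.12. At Yap1 over 9 probes, tumour 5 read -0.02, so that this gene's own probes did not show the level of -0.29 of its segment. The loss of chromosome 7 in tumour 5 took in Ccne1, Plk1, Foxa3, Fgf15 and Igf2, and its gain of chromosome 1 took in Mdm4, Casp8, Fasl and Cflar. In tumour 1, the loss of chromosome 14 took in Rb1, Bap1, Lats2 and Tnfrsf10b, and that of chromosome 12 took in Foxa1. Rb1 over 23 probes read -0.15 in tumour 1 and 0.04 to 0.26 in the others.

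Igf2, an imprinted growth factor gene, read above the normal FEAT liver in every tumour, at probes where that normal liver was itself low. Its 3 probes differed from the normal FEAT liver by 0.69, 0.71, 0.68, 0.38, 0.56 and 0.34 in tumours 1 to 6, including tumour 5, where chromosome 7 was lost. The normal liver stood at -0.79 against the reference and the tumours averaged -0.23. The mean difference was 0.56 (SE 0.16), which did not pass limma. Ttr, a hepatocyte list gene with 2 probes, went the other way, with differences of -0.68 to -0.35 in the tumours and a mean of -0.52. There the normal liver was high, at 0.57 against the reference, and the tumours averaged 0.05.

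**Figure D5:**
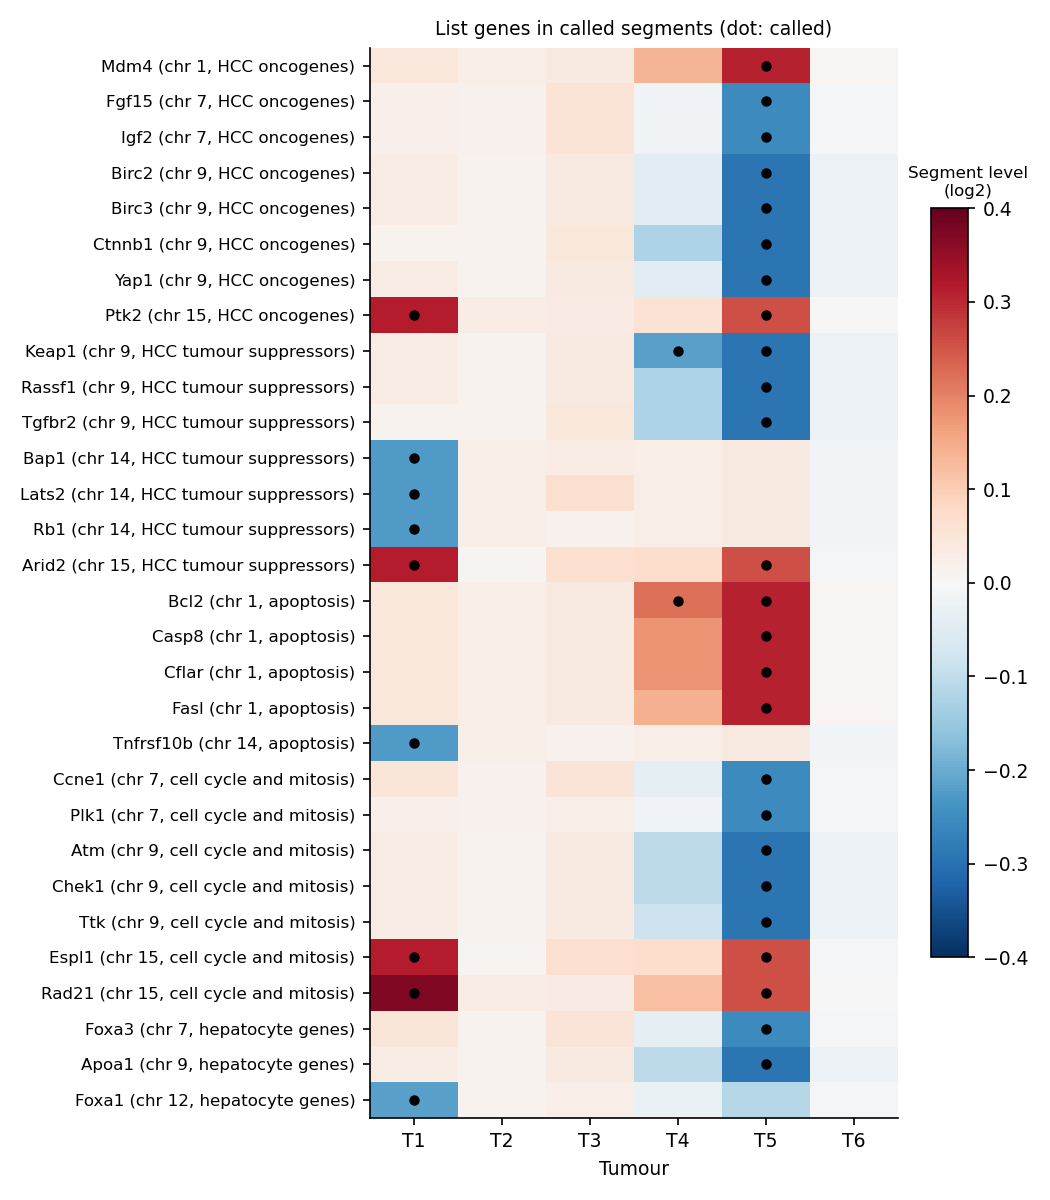
Level of the segment (log2, tumour minus normal FEAT liver) that holds each list gene called in at least 1 tumour, with genes in lines and tumours 1 to 6 in columns; the colour scale is centred on 0. Dots mark calls, which lie in tumours 1 and 5 and, at Bcl2 and Keap1, in tumour 4; tumour 4 also has uncalled levels of 0.18 at Casp8 and Cflar and -0.12 at Ctnnb1, Rassf1 and Tgfbr2.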

How the data were processed

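DNA of 8 livers was hybridised to 2-colour Agilent 244A arrays, test in Cy3 and reference in Cy5 per the labels. The deposited values are log2 ratios. On the wild-type array, the only one with scanner output used here, they were the negative of the deposited scanner file's log10 ratio (red over green), converted to base 2, plus a constant of 0.0014 (r = -1). The scale, centring and direction of the other 7 arrays rest on that check and on the dyes in the labels. Per the file headers, the authors extracted that array by protocol CGH-v4_91 of Agilent Feature Extraction 9.1.3.1, with spatial detrending and linear normalisation of the dyes, and per the series description CGH analytics 3.4. The deposited intensity columns of that scanner file are processed signals, used for an alternative without dim probes. Genome build: not given in the sources used here.

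Spots of a probe were averaged, the autosomal median of every array was set to 0 with no further normalisation, and the normal FEAT liver was subtracted. Outlying values were limited to 3 noise SDs from the running median of 5 probes. Chromosomes were divided by penalised least squares (penalty 2 times the logarithm of the probe number times the noise variance, at least 5 probes), and a level of 0.2 or more in size was called. A focal call stayed at an overlap of 50% or more. A bin was called where over 50% of its probes lay in called segments, and bins needed at least 20 probes. The 6 tumours were compared with 1 normal array by limma 3.58.1 (R 4.3.3; 5 residual degrees of freedom), and p-values were adjusted by Benjamini-Hochberg, with a threshold of 0.05; the lone array is assumed to vary like the tumours, and p-values measure the spread between these samples only. Probes without a value on an array were left out of the probe fit. Older gene names were matched to RefSeq symbols (GRCm38.p6, with no use of its coordinates). Segmentation was run in Python 3.11.15.

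The comparison, its members and the gene lists were chosen with earlier results of these data known. Named were Mettl13, the 5 highest and 5 lowest focal loci, the 10 largest probe differences, genes past the gene test, list members called in at least 2 tumours or, up to 6 per list, in 1, the line-carried genes and the normal liver's calls. Pfkm as a gene, Myc, Ttr and the printed Smyd3 probes were chosen after their values were seen. In simulations with independent, normally distributed noise of each difference's SD, 0 segments were called without a planted change. Such noise lacks the isolated outlying probes of the real arrays, so it gives no rate of false calls for them. The real difference of the wild-type liver from the normal FEAT liver gave 5 focal calls. A shift of 1 planted over 5 probes was found in 51% of cases in tumour 4 and 85% to 100% in the other tumours. Over 10 probes it was found in 99% in tumour 4 and 100% in the others. A shift of 0.5 over 10 probes was mostly missed: it was found in 20%, 16%, 12%, 3% and 15% in tumours 1 to 5. In tumour 6 it was found in 81%. A shift of 0.25 over 500 probes was found in 100% in every tumour. In simulated probes with 6 tumours against 1 array, limma recovered 78.5% of shifts of 2 and 0% of shifts of 1. Alternatives covered the threshold, penalty, probe minimum, centring, control array, GC content, dim probes, bin size, variance shrinkage and each tumour left out.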

Additional observations from a re-analysis of the deposited data

Results flagged for a closer look

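Among 50 groups of 6 tumour values on the autosomes, 5 held a tumour that stood apart from the others by Dixon's criterion. Chance gives about 1 in 20 groups, but this rate does not apply to the focal loci among them, which were chosen for extreme values: the Smyd3 locus was chosen because tumour 3 was low there, and the Loxl2 locus lies on chromosome 14. Chromosome 7 of tumour 5 had a mean difference of -0.25, with the next tumour far above it. Chromosome 14 of tumour 1 had a mean difference of -0.24. The Loxl2 locus of the same chromosome stood apart in tumour 1 at -0.30. At the BC040066 locus on chromosome 4, which was low in the normal FEAT liver, tumour 1 had a median difference of -0.12 and the other 5 tumours 0.23 to 0.39. The Smyd3 locus stood apart in tumour 3 at -0.54.

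The sex chromosomes lie outside the comparison, which is on autosomes. On chromosome X the mean differences from the normal FEAT liver were 0.13 in tumour 1, 0.19 in tumour 4 and 0.27 in tumour 5, farther from 0 than the 0.10 of the wild-type liver. On chromosome Y they were -0.68 in tumour 1, -0.28 in tumour 4 and -0.32 in tumour 5, and 0.15 in tumour 2 and 0.15 in tumour 3, against 0.14 in the wild-type liver. The values of tumours 2 and 3 on chromosome Y differ little from that of the wild-type liver. Chromosome Y rests on 606 probes and chromosome X on 11955.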

How the results depend on the processing

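Alternatives on segment level, chromosome control and centring, the transgene's control, the tumours left out of focal calls, lists and transgene, and the refits of lists and named probes were added after seeing the data. The mean altered share of 6.52% became 17.6% at a calling threshold of 0.1 and ran from 3.23% to 7.82% without 1 tumour. Recurrent gained bins (129) became 351 and 0 at thresholds of 0.1 and 0.3, 196 without subtraction, and 0 to 129 without 1 tumour. Recurrent lost bins (2) became 329 and 0 at those thresholds, 0 at a penalty factor of 4, 7 without subtraction, and 0 to 2 without 1 tumour. Focal calls depended most on the penalty. With factors of 1 and 4, those that stayed (12) became 90 and 2, those lost (20) 257 and 11, those already present (10) 106 and 0, and the new ones (52) 536 and 8. An overlap of 80% left 6 that stayed. Without 1 tumour these counts ran from 8 to 12, 14 to 19, 8 to 10 and 32 to 49, the lowest number of new calls without tumour 4. Genes past limma (0) became 1 without tumour 4 (0 to 1 over the tumours left out), 2 with robust shrinkage, 14 with centring on the mode, 13 with genes of 1 probe and 1 with genes of at least 5. Probes past limma (241) became 0 with both normal livers as controls and 130 to 375 without 1 tumour; 153, 129, 145, 241, 148 and 226 of those called without tumours 1 to 6 were among the 241. With the wild-type liver as control, the transgene's probes gave 1.478 and 0.55; without 1 tumour they ran from -1.20 to -0.51 and from 0.09 to 0.23. Chromosome 9 of tumour 4, at -0.09, turned to 0.00 with mode centring (0.0021 before rounding). The cause of these changes was not tested. Autosome means, 1 Mb bins and gene lists stayed at 0 called under all their alternatives. No paired analysis was possible: the normal group has 1 array, from a mouse of 13 months, an age that none of the tumour mice had.

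The single normal array limits every value: its own errors enter all 6 differences, and no spread among normal FEAT livers can be given. Noise limits small focal changes, most in tumour 4. The number of arrays limits the tests.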
